A study of Mus musculus with 4 samples.

Results

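The Notch family described here comprised 10 genes: the receptors Notch1, Notch2, Notch3 and Notch4, the ligands Dll1, Dll4, Jag1 and Jag2, and the target genes Hes1 and Hey1. They were taken by gene symbol from the deposited count tables, and 10 of 10 were found among the 21981 genes listed there. All 10 passed the filter on low counts that left 15951 genes for testing.

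In Notch signalling, a transmembrane ligand of the Delta or Jagged type on one cell binds a Notch receptor on its neighbour, and the receptor is then cut by an ADAM protease and by gamma-secretase. The freed intracellular part enters the nucleus, joins the DNA-binding protein RBPJ and a Mastermind coactivator, and switches on transcriptional repressors of the HES and HEY families. In the embryonic cortex the pathway is known for keeping radial glia undifferentiated and for a part in the onset of astrocyte formation. In vessels, DLL4 and NOTCH1 are known for the choice between tip and stalk cells, NOTCH4 is best known from endothelium, and NOTCH3 is the receptor characteristic of mural cells (pericytes and smooth muscle).

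Bulk RNA sequencing was performed on microglia, the resident macrophages of the brain, isolated from the untreated cerebral cortex of mice at E16. The control libraries (control 1 and control 6) carried the Bach1 fl/fl genotype. The Bach1 cKO libraries (cKO 2 and cKO 5) came from a conditional knockout that the series text names Bach1cKO-Cx3; the driver of the deletion is not spelled out further. Bach1 encodes a heme-regulated transcriptional repressor. The series text speaks of triplicates, and 2 libraries per genotype were analysed here. Nothing in the labels ties a library to an animal or a pool, so p-values reflect the spread among these libraries alone, which may be technical. The labels do not describe how the cells were isolated.

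Library totals lay between 17233115 and 19305078 reads, and 3 reads corresponded to between 0.155 and 0.174 CPM (the read count scaled to the library total), a floor that covers counting error only. All 15 microglial markers examined had reads in every library, but their summed level was 26502 and 42103 CPM in control 1 and control 6, and 9535 and 37137 CPM in cKO 2 and cKO 5. Markers of vessel and neural cells were higher in control 1 and cKO 2. Those of border-associated macrophages were not, at 235 and 278 CPM in control 1 and control 6, and 125 and 523 CPM in cKO 2 and cKO 5. The 10 endothelial markers summed to 3530 and 654 CPM for the control pair, against 2791 and 360 CPM for the cKO pair, and the 7 mural cell markers found (of 8) to 3521, 688, 3195 and 258 CPM in the same order. The 8 radial glia markers found (of 9) summed to 537, 171, 1020 and 143 CPM, and the 10 markers of cortical excitatory neurons to 1102, 335, 3727 and 302 CPM. The most abundant members of the marker lists were Csf1r, Slc1a3, Neurod6, Btg2, Dlx2, Cldn5, Rgs5, Mrc1 and Hba-a1; the markers without reads were Neurog1 in control 6 and cKO 5 and Cd163 in control 6. The targeted gene Bach1 had 800 and 372 reads for the control pair, against 519 and 683 reads for the cKO pair, a count over the whole gene that does not check the deletion.

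The comparison asks whether expression of the Notch family in these microglial samples differed between genotypes. No member passed the threshold: 0 of 10 had an adjusted p under 0.05 in edgeR's quasi-likelihood test, where 0% of the 15951 genes were called higher and 0% lower in cKO. Without adjustment, 0 of 10 members had a p under 0.05, against 0.176% of genes higher and 0.132% lower. DESeq2 and limma-voom also gave 0 of 10 members, both adjusted and unadjusted. The groups overlapped for all 10 members (0 of 10 separated, against 15.9% of genes whose cKO and control CPM did not overlap). The fitted log2 fold change, cKO over control, was negative for 8 members and positive for 2 (Dll1 and Hes1), with a median of −0.24 against 0.03 over all genes, of which 8425 were positive and 7526 negative. Every estimate was smaller than 2 standard errors. Scaled to the microglial markers in place of all genes, all 10 members were positive, with a median of 1.11 where the median of all genes was 1.26. All 15 of these markers had negative estimates themselves before this scaling. They include Cx3cr1, with 4333 and 5158 CPM in control 1 and control 6, against 747 and 2756 CPM in cKO 2 and cKO 5. They also include C1qc, with 730, 4315, 725 and 4278 CPM in the same order. Scaling without Cx3cr1 was not tested.

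Most members differed more within a genotype than between the genotype means. In 8 of 10 members, control 1 exceeded control 6 and cKO 2 exceeded cKO 5, an order whose share over all genes was not counted. In 6 of 10 (Notch3, Notch4, Dll4, Jag1, Jag2 and Hey1) both of these differences were over 2-fold, a pattern found in 19.1% of all genes tested and chosen for description after the values were seen. Notch1 and Dll1 kept the order with a smaller difference in one genotype, 1.89-fold in cKO for Notch1 and 1.62-fold in control for Dll1. Notch2 and Hes1 were the exceptions to the order, as the plot of CPM by library shows.

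**Figure D1:**
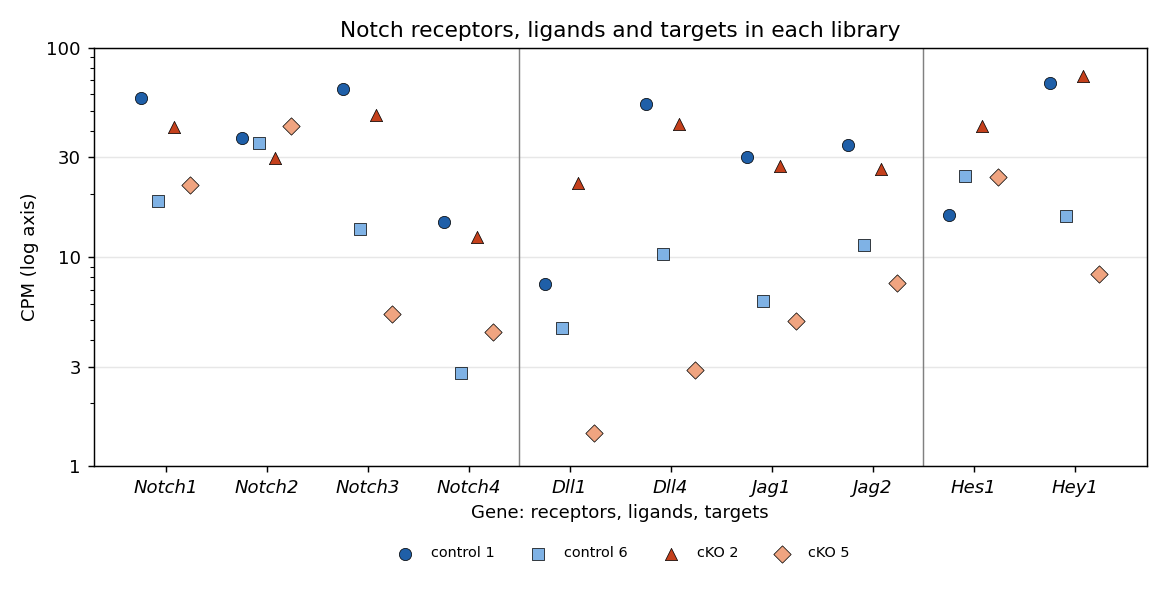
CPM (log axis) of the 10 Notch family genes in control 1, control 6, cKO 2 and cKO 5, 1 point per library, with vertical lines between receptors, ligands and targets. Control 1 and cKO 2 lie above control 6 and cKO 5 for most genes, while Notch2 stays between 29.8 and 42.5 CPM in all 4 libraries.

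Among the receptors, Notch2 was the steady one, and the other 3 differed between the libraries of a genotype by 1.89- to 8.95-fold. Notch1 (ENSMUSG00000026923, chromosome 2, 26457903 to 26516663, minus strand, GRCm38), the receptor of radial glia and vessels, had 57.7 CPM (1009 reads) in control 1, 18.5 CPM (319 reads) in control 6, 41.8 CPM (723 reads) in cKO 2, with 22.1 CPM (426 reads) in cKO 5. The cKO pair fell inside the range of the controls. Mean levels were 38.1 ± 27.7 CPM (control) and 31.9 ± 13.9 CPM (cKO; SD, 2 libraries each), and the log2 fold change was −0.33 ± 0.61 (SE; 95% interval −1.98 to 1.31; edgeR adjusted p = 0.9997). Without control 1 it was 0.56.

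Notch2 (ENSMUSG00000027878, chromosome 3, 98013527 to 98150361, plus strand) had 37.0 CPM (647 reads) in control 1, 35.3 CPM (608 reads) in control 6, 29.8 CPM (515 reads) in cKO 2, with 42.5 CPM (820 reads) in cKO 5. One cKO value lay below both controls and the other above them, and the highest library exceeded the lowest by 1.43-fold, the narrowest range of the 10 members. Its log2 fold change was −0.04 ± 0.41 (95% interval −1.15 to 1.06), the estimate with the smallest standard error among the members. It was 0.01 without control 6 and 0.34 without cKO 2. Its values did not follow the vessel and neural marker sums across libraries. Per length it was the most abundant receptor in control 6 and cKO 5, at 3.27 and 3.94 CPM per kilobase of exon.

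Notch3 (ENSMUSG00000038146, chromosome 17, 32120820 to 32166880, minus strand), the mural cell receptor, had 63.4 CPM (1107 reads) in control 1, with 13.6 CPM (234 reads) in control 6. The cKO libraries were further apart, at 47.8 CPM (827 reads) in cKO 2 against 5.34 CPM (103 reads) in cKO 5. The difference within a genotype, 4.67-fold in control and 8.95-fold in cKO, was larger than that between the genotype means of 38.5 ± 35.2 and 26.6 ± 30.01 CPM. The log2 fold change was −0.68 ± 1.17; it was 0.64 without control 1, 0.12 without cKO 5 and −2.68 without cKO 2. Notch4 (ENSMUSG00000015468, chromosome 17, 34564268 to 34588503, plus strand), the endothelial receptor, had the lowest mean level of the receptors, with 14.8 CPM (258 reads), 2.79 CPM (48 reads), 12.5 CPM (217 reads) and 4.40 CPM (85 reads) in control 1, control 6, cKO 2 and cKO 5. Its log2 fold change of −0.14 ± 0.96 became 1.34 without control 1 and 0.32 without cKO 5.

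The ligands Dll4 and Dll1 had the widest ranges of the family. Dll4 (ENSMUSG00000027314, chromosome 2, 119325784 to 119335962, plus strand), the Delta ligand of sprouting and arterial endothelium, had 53.7 CPM (939 reads) in control 1, with 10.4 CPM (179 reads) in control 6. In cKO 2 it had 43.3 CPM (749 reads) and in cKO 5 2.90 CPM (56 reads), so that the highest library exceeded the lowest 18.5-fold. The cKO values stood on one side each of control 6 and both lay below control 1. Mean levels were 32.1 ± 30.7 CPM (control) and 23.1 ± 28.5 CPM (cKO), and the log2 fold change was −0.63 ± 1.35 (95% interval −4.27 to 3.01). Leaving out cKO 2 gave −3.30, leaving out control 1 gave 0.81 and leaving out cKO 5 gave 0.24.

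Dll1 (ENSMUSG00000014773, chromosome 17, 15367354 to 15376872, minus strand), the Delta ligand of committed neural progenitors, was arranged differently, with its single high value in cKO 2. It had 7.44 CPM (130 reads) in control 1, 4.58 CPM (79 reads) in control 6, 22.5 CPM (390 reads) in cKO 2, with 1.45 CPM (28 reads) in cKO 5. The controls thus lay between the cKO libraries, which differed 15.5-fold. The log2 fold change was 0.80 ± 1.23 with all libraries, −1.92 without cKO 2, 1.67 without cKO 5 and −0.06 in limma-voom. An antisense transcript, A930024N18Rik, shares 20.5% of the exonic bases of Dll1, and since the strandedness of the counting is not given, reads from this stretch cannot be assigned to one strand. The same holds for smaller shares of the exonic bases of other members, 7.504% of Notch1 with 0610009E02Rik and 2.91% with Gm13568, 6.03% of Notch3 with Gm17276 and 5.56% of Dll4 with Gm14207.

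The Jagged ligands were high in the same libraries as the vessel, radial glia and neuronal markers. Jag1 (ENSMUSG00000027276, chromosome 2, 137081456 to 137116644, minus strand) had 30.2 CPM (528 reads) in control 1, 6.15 CPM (106 reads) in control 6, 27.3 CPM (472 reads) in cKO 2, with 4.97 CPM (96 reads) in cKO 5. Jag2 (ENSMUSG00000002799, chromosome 12, 112907819 to 112929776, minus strand) had 34.5 CPM (603 reads), 11.4 CPM (196 reads), 26.3 CPM (456 reads) and 7.51 CPM (145 reads) in that order. For both, control 1 and cKO 2 were the high libraries, and the genotypes overlapped. The log2 fold changes were −0.30 ± 1.05 for Jag1 and −0.56 ± 0.78 for Jag2; without control 1 they were 1.08 and 0.30, and Jag1 was 0.39 without cKO 5.

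The target genes did not share a pattern. Hes1 (ENSMUSG00000022528, chromosome 16, 30064384 to 30067796, plus strand), which encodes a repressor that holds back neuronal differentiation, had its lowest value in control 1 at 15.9 CPM (277 reads), with 24.3 CPM (419 reads) in control 6, 42.2 CPM (730 reads) in cKO 2, with 24.1 CPM (465 reads) in cKO 5. Control 6 and cKO 5 were alike, and the genotypes overlapped only through these libraries. Mean levels were 20.1 ± 5.98 CPM (control) and 33.1 ± 12.8 CPM (cKO), and the log2 fold change was 0.59 ± 0.45 (95% interval −0.62 to 1.80; unadjusted p = 0.255, adjusted p = 0.9997 in edgeR). Hes1 kept its sign when any 1 library was left out, between 0.23 and 1.03, and had the smallest unadjusted p of the members. Hey1 (ENSMUSG00000040289, chromosome 3, 8663359 to 8667256, minus strand), a repressor known from arterial endothelium, had 68.0 CPM (1188 reads) in control 1, 15.7 CPM (271 reads) in control 6, 73.2 CPM (1268 reads) in cKO 2, with 8.29 CPM (160 reads) in cKO 5. Its cKO libraries were both the highest and the lowest of the 4, and its log2 fold change was −0.19 ± 1.14, with 1.05 without control 1, 0.61 without cKO 5 and −2.17 without cKO 2.

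**Figure D2:**
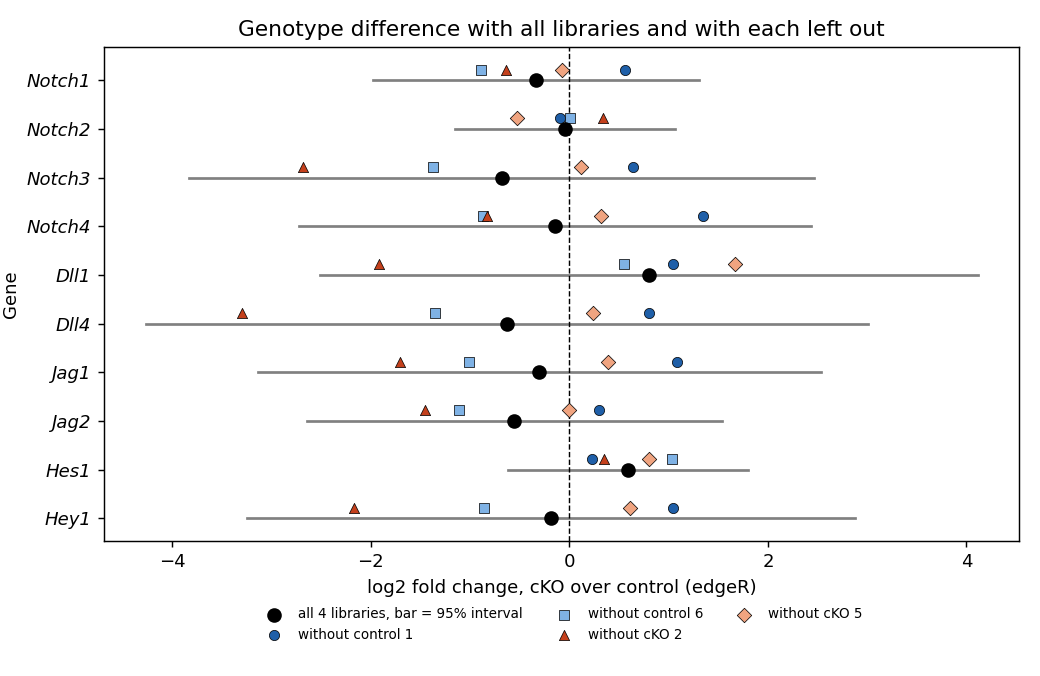
Fitted log2 fold change (cKO over control, edgeR) of the 10 members: black points use all 4 libraries with their 95% intervals, and coloured symbols show the estimate when the named library is left out. All 10 intervals include 0, and the estimates without cKO 2 and without control 1 fall on opposite sides of 0 for 9 of 10 genes (all but Hes1).

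Leaving out cKO 2, 3 members (Notch3, Dll4 and Hey1) had an unadjusted p under 0.05 in edgeR, all 3 lower in cKO, where 3.08% of genes did. The p-values were 0.0308, 0.0209 and 0.0490, with an adjusted p of 0.9989 for each. Leaving out cKO 5, Dll1 was the one member under 0.05 on the higher side, as were 4.98% of genes. Its unadjusted p-value was 0.0353 and its adjusted value 0.468 in edgeR. In these fits 1 genotype holds a single library, which is assumed to vary like the pair.

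Per kilobase of exon, the order of the members differed between the libraries. Hey1 was the most abundant member in control 1 and cKO 2, at 20.8 and 22.4 CPM per kilobase. Hes1 was the most abundant in control 6 and cKO 5, at 11.9 and 11.8 CPM per kilobase, and in cKO 2 it came next to Hey1 at 20.7 CPM per kilobase. Dll4 was the most abundant ligand in control 1, control 6 and cKO 2, with 13.95, 2.70 and 11.2 CPM per kilobase, but in cKO 5 it had 0.753 CPM per kilobase against 1.08 for Jag2. Dll1 and Notch4 held the lowest places in control 1 at 1.76 and 1.83 CPM per kilobase. Ranked by the mean over libraries, the order was Hes1, Hey1, Dll4, Notch3, Notch2, Jag1, Jag2, Notch1, Dll1 and Notch4, from 13.1 to 1.07 CPM per kilobase. The ranges over libraries overlapped for 9 of 9 pairs of neighbours in this order.

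The vessel and neural markers were high in the same libraries as most members, though not Notch2 or Hes1, and in bulk RNA fewer cells of a type and less RNA per cell cannot be told apart. Each member's CPM was therefore also set against the summed CPM of the marker lists. The lists themselves differed between genotypes in their estimates. The median log2 fold change was 0.82 for radial glia markers (7 of 7 tested positive) and −0.62 for endothelial markers (10 of 10 negative). It was −0.55 for mural cell markers (6 of 7 negative) and −0.55 for microglial markers (15 of 15 negative). Each ratio below also carries the difference of its list. Per 1000 CPM of endothelial markers, Hey1 had 19.3 and 24.0 for the control pair, against 26.2 and 23.0 for the cKO pair, a range of 1.36-fold where the unscaled CPM ranged 8.84-fold. Notch3 had 17.99, 19.7, 14.95 and 20.7 per 1000 CPM of mural cell markers in control 1, control 6, cKO 2 and cKO 5, a range of 1.38-fold against 11.9-fold unscaled. Dll4 had 15.3, 15.1, 13.5 and 11.2 per 1000 CPM of mural cell markers, and 15.2, 15.9, 15.5 and 8.05 per 1000 CPM of endothelial markers, where cKO 5 was the low library. For these 3 genes at least one vessel list gave a range under 1.5-fold across both genotypes. The radial glia list, high in the same libraries, also narrowed them, to 2.19-fold for Hey1, 3.17-fold for Notch3 and 4.95-fold for Dll4, with both cKO ratios below both controls for each of the 3. The ratio of Dll4 to the mural cell markers was also lower in both cKO libraries. So was that of Notch3 to the endothelial markers, with 17.1 and 14.8 for the cKO pair against 17.9 and 20.8 for the control pair. The ratio of Hey1 to the mural cell markers went the other way, with 22.93 and 32.1 for the cKO pair against 19.3 and 22.86.

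For Jag1 the ratio to the endothelial markers ranged 1.61-fold (6.08-fold unscaled), with 8.56 and 9.40 for the control pair and 9.77 and 13.8 for the cKO pair, which did not overlap. Jag2 ranged 2.21-fold against endothelial markers (4.59-fold unscaled). Against mural cell markers the range was 2.26-fold for Jag1 and 3.53-fold for Jag2. Against radial glia markers it was 2.10-fold and 2.57-fold, with both cKO ratios below both controls for each gene, the opposite side from Jag1 against endothelium. Notch4 had 4.18, 4.26, 4.49 and 12.2 per 1000 CPM of endothelial markers, so 3 libraries were alike and cKO 5 was higher, on 85 reads. Its range of 2.92-fold there was wider than the 2.50-fold against radial glia markers, and it was 4.35-fold against mural cell markers (5.30-fold unscaled). Dll1 was narrowest against the radial glia list, at 13.9, 26.8, 22.1 and 10.1 per 1000 CPM (2.65-fold against 15.5-fold). In contrast, Notch1, Notch2 and Hes1 varied more after scaling to any of the 4 lists than before. Against endothelium the range was 4.09-fold for Notch1 (3.12-fold unscaled), 11.2-fold for Notch2 and 14.9-fold for Hes1. Scaled to the microglial list, Notch2 ranged 3.72-fold. It had 1.397 and 0.838 per 1000 CPM for the control pair, against 3.12 and 1.14 for the cKO pair. Hes1 had 0.598, 0.577, 4.42 and 0.649, the high value again in cKO 2. Both cKO values of Hes1 lay above both controls, but cKO 5 was close to control 1. With microglial scaling, tested genes in general also moved toward cKO, their middle log2 estimate being 1.26 in place of 0.03. These ratios describe 4 libraries, were set up with the values in view and carry no test. How many of all genes separate by genotype on these scales was not counted.

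**Figure D3:**
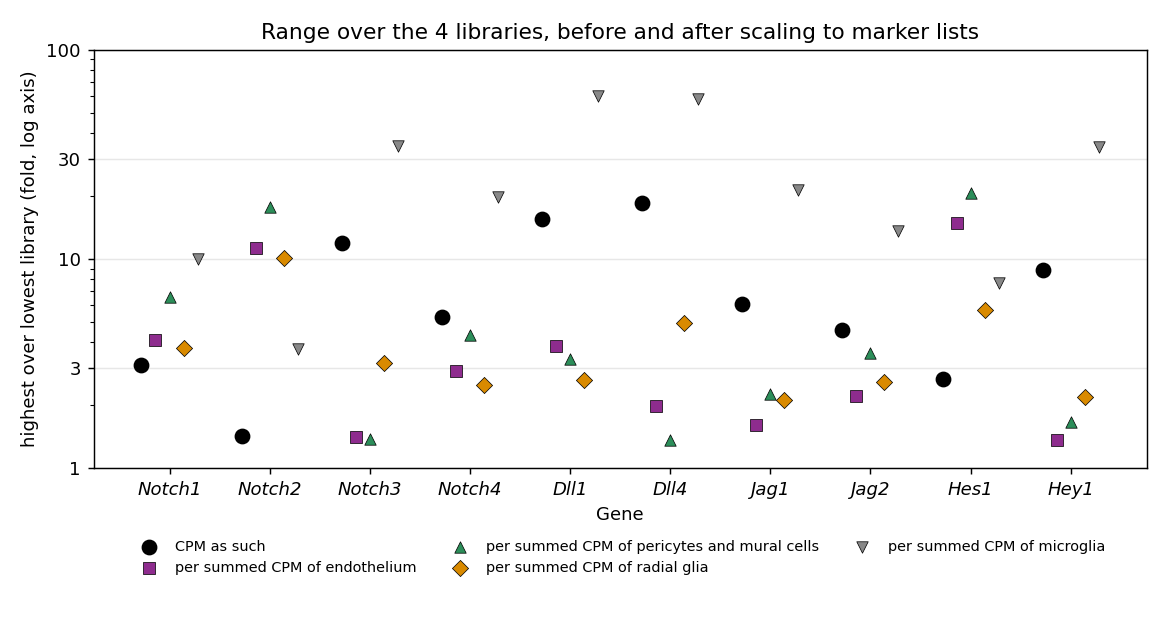
Highest over lowest of the 4 libraries (fold, log axis) for each member, as CPM (black) and after division by the summed CPM of endothelial, mural cell, radial glia or microglial markers. Notch3, Dll4, Jag1 and Hey1 narrow to under 2-fold against at least one vessel list, while Notch2 is narrowest unscaled, at 1.43-fold.

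The remaining genes of the pathway were taken from a list of 47 by role, of which 42 were tested. None passed an adjusted p of 0.05 or an unadjusted p of 0.05 in edgeR (0 of 42; the percentages over all genes are those given above). Without cKO 5, 10 of 43 had an unadjusted p under 0.05 in edgeR, 5 higher (4.98% of all genes) and 5 lower (5.49%), among them Dll3, Dtx1 and Hes5 higher and Furin and Numb lower. Their adjusted p-values in edgeR were 0.468 to 0.474. Without cKO 2 it was 1 of 43, Hey2, which was lower and is named for that count, and without control 1 or without control 6 it was 0. Their log2 fold changes were positive for 18 and negative for 24, with a median of −0.09 against 0.03 over all genes. Groups did not overlap for 4 of 42 (9.52%, against 15.9% of all genes). Dlk2 was not listed in every table, Hes2 and Hes3 were listed in none, and Nrarp and Hes7 were below the filter. Nrarp, a feedback inhibitor and Notch target, had 5 and 3 reads for the control pair, against 1 and 2 for the cKO pair, at or near the 3-read floor throughout.

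Of the other ligands, Dll3, which acts inside the signal-receiving cell, had 10.6 and 4.64 CPM for the control pair, against 36.9 and 5.39 CPM in cKO 2 and cKO 5 (log2 fold change 1.31 ± 0.97). The non-canonical ligand Dlk1 had 5.21, 0.928, 3.35 and 0.622 CPM (−0.75 ± 1.23). Dll3 had its single high value in cKO 2, as Dll1 did, whereas Dlk1 was high in control 1 and cKO 2. Among the ubiquitin ligases that act on ligands, the estimates ran from −0.62 ± 0.98 for Neurl1b to 0.10 ± 0.38 for Mib2. Among the glycosyltransferases that tune ligand choice, Rfng was the highest at 0.36 ± 0.38 and Lfng the lowest at −0.41 ± 0.55.

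The highest library exceeded the lowest by a median of 1.52-fold over the 10 genes of receptor cleavage, against 13.5-fold over the 4 other Hes and Hey genes. Furin, the convertase that cuts the receptor precursor, had 42.4 and 46.7 CPM for the control pair, against 18.7 and 29.99 CPM in cKO, so both cKO values lay below both controls, with a log2 fold change of −0.91 ± 0.47 (unadjusted p = 0.117, adjusted p = 0.9997 in edgeR). The gamma-secretase subunit gene Ncstn had 522 and 582 CPM against 412 and 459 CPM and was likewise separated. At the other end, Aph1b had 24.8, 5.69, 59.96 and 13.5 CPM (1.15 ± 0.95); it has a close paralog, Aph1c, and how reads were divided between them is uncertain. In this list 8 of 10 estimates were negative, with a median of −0.17.

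In the nuclear complex, Rbpj had 24.2 and 19.7 CPM for the control pair, against 20.4 and 25.9 CPM for the cKO pair, with a log2 fold change of 0.04 ± 0.41. The estimates of its 8-gene list ran from −0.38 ± 0.79 for the acetyltransferase gene Kat2b to 0.35 ± 0.42 for the corepressor gene Spen. The highest library exceeded the lowest by 1.32-fold for Rbpj, a range near that of Notch2. Of the genes for receptor turnover, Dtx1, an E3 ligase that is also a Notch target, had 5.95 and 3.42 CPM for the control pair, 31.5 CPM in cKO 2 and 4.40 CPM in cKO 5, the largest estimate of the 42 (1.76 ± 0.98). Numb, the inhibitor that promotes receptor endocytosis, had 171 and 198 CPM against 100 and 148 CPM (−0.62 ± 0.44), and Itch, a ligase acting on Notch, had 216 and 185 CPM against 159 and 175 CPM. These 2 genes, with Furin and Ncstn, are the 4 whose groups did not overlap; Ncstn and Itch are named here because of that count.

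**Figure D4:**
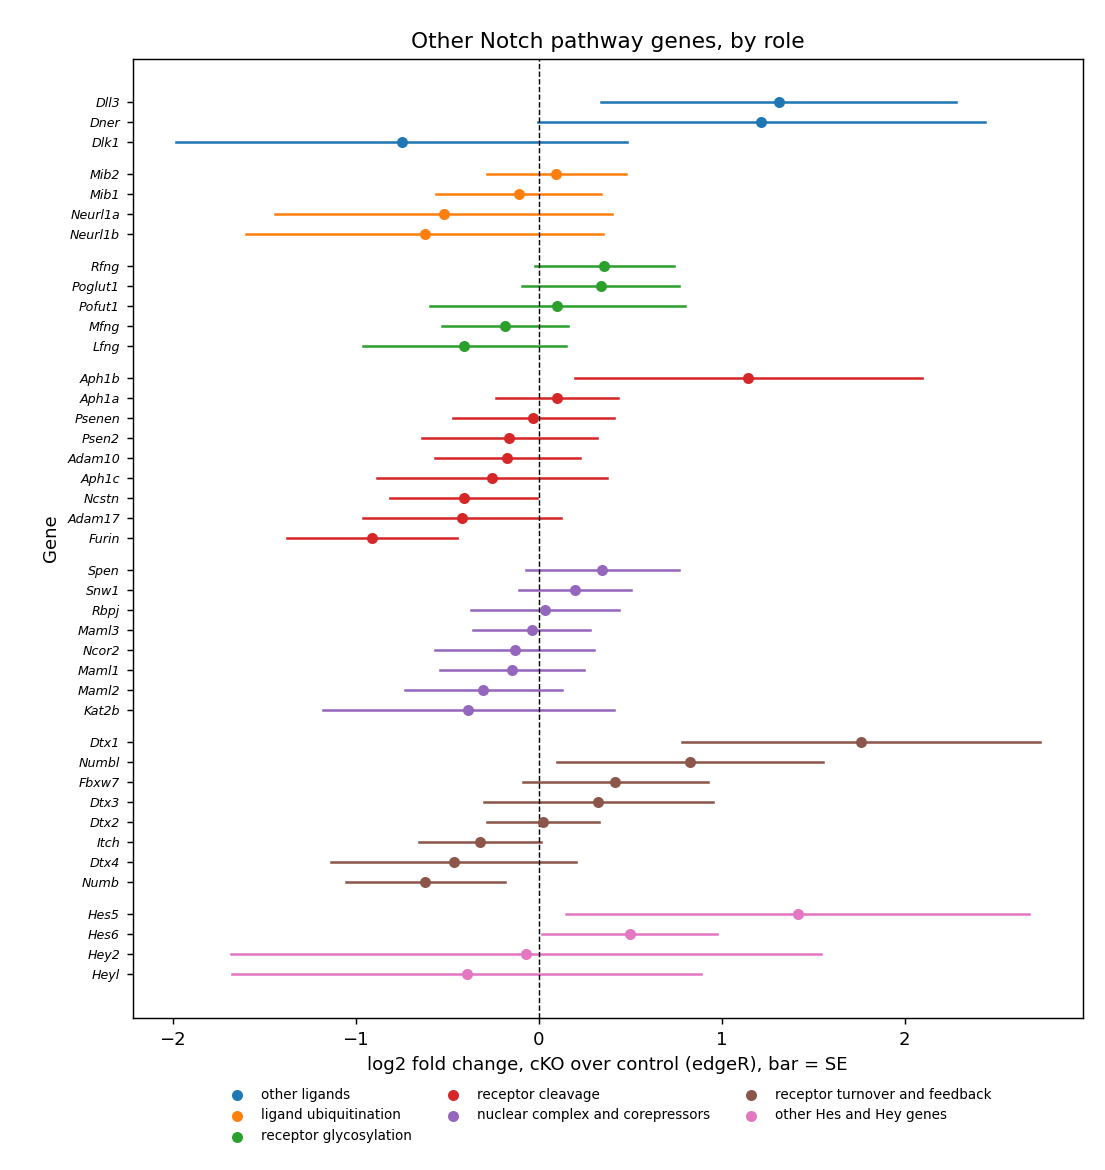
Fitted log2 fold change (cKO over control, edgeR) with SE for the other pathway genes tested (all but 1 of 42), grouped by role and ordered within each group. Estimates run from −0.91 for Furin to 1.76 for Dtx1, and none passed the threshold.

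Among the other Hes and Hey genes, Hes5 and Heyl had their highest values in different libraries. Hes5, the Notch target of radial glia, had 22.8 and 4.87 CPM for the control pair, against 75.7 and 6.68 CPM in cKO 2 and cKO 5 (log2 fold change 1.42 ± 1.26). Heyl, known from mural cells, had 96.2 and 14.9 CPM for the control pair, against 85.0 and 8.44 CPM for the cKO pair (−0.39 ± 1.28). Hes5 was highest in cKO 2 and Heyl in control 1, the libraries with the highest radial glia and endothelial sums. Per 1000 CPM of radial glia markers Hes5 had 42.5 and 28.5 for the control pair, against 74.2 and 46.6 for the cKO pair, and Heyl had 27.3, 22.7, 30.4 and 23.4 per 1000 CPM of endothelial markers, a range of 1.34-fold. The part of the radial glia markers in the values of Hes5 was not tested.

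Promoter sequence was compared for 3 of these genes, chosen because Hes5 is a textbook RBPJ target while Dll4 and Notch3 followed the vessel lists. The letters searched were TGGGAA, the core that RBPJ binds, and the longer GTGGGAA, which contains it, each on both strands of the 250 bases before the RefSeq transcription start (build GRCm38.p6). Capitals mark TGGGAA or, for a match on the opposite strand, TTCCCA. The windows are chr4:154960673-154960922 on the plus strand for Hes5, chr2:119325534-119325783 on the plus strand for Dll4 and chr17:32166891-32167140 on the minus strand for Notch3.
Hes5: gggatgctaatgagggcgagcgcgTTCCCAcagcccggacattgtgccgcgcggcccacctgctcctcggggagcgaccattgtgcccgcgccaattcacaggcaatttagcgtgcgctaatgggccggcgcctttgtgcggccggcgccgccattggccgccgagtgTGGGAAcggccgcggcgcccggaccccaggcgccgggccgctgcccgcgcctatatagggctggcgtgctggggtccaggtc
Dll4: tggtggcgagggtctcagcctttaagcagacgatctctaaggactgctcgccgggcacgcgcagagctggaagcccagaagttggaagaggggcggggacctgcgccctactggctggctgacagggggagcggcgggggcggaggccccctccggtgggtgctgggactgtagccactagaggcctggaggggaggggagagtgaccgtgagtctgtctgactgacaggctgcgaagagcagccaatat
Notch3: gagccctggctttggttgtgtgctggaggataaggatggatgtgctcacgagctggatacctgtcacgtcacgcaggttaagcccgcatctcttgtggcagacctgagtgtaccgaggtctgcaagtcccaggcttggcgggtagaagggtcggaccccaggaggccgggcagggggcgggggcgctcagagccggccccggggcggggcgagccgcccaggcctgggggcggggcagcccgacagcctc
Hes5 had 2 matches, beginning 226 and 82 bases before the start, on opposite strands, and both were matches to GTGGGAA as well. Dll4 and Notch3 had 0 in this window. Of 32851 promoter windows of this length in the table, 21.6% held at least 1 TGGGAA and 5.42% at least 1 GTGGGAA, and 0.161% held 2 or more of the latter. Among the members, 8 of 10 had an entry in the table (not Hes1 and Hey1), and none of their windows held TGGGAA. Of the other pathway genes besides Hes5, windows of Lfng, Psen2, Spen, Hes7 and Hey2 also held GTGGGAA. Hes5 was picked as a known RBPJ target, so its contrast with Dll4 and Notch3 is a description and was not tested.

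The authors' deposited tables compare the libraries in pairs, each 1 cKO library with 1 control library, and the 4 pairs share libraries. A call there is a p under 0.05 with at least a 2-fold difference, and it compares those libraries, not the genotypes. The deposited adjusted p lay below the unadjusted p for 66.6% to 80.0% of genes, depending on the pair. An ordinary correction for multiple testing does not lower p-values, and these adjusted values are not used here. In the authors' deposited table of cKO 2 against control 6, 8 of 10 members were called higher (33.7% of genes were) and 0 lower (13.4%). With cKO 5 against control 1, the authors' deposited table called 0 higher (8.79%) and 8 lower (26%). For cKO 2 against control 1 it called Dll1 and Hes1 higher (2 of 10; 20% of genes) and 0 lower (11.6%), and for cKO 5 against control 6 it called Notch3, Dll1 and Dll4 lower (3 of 10; 11.4%) and 0 higher (9.23%). Notch2 was called in none of the 4. Dll4 had deposited log2 fold changes of −0.31 and 2.06 for cKO 2 against control 1 and control 6, and −4.21 and −1.84 for cKO 5, in the authors' deposited tables. Hes1 had 1.41, 0.79, 0.60 and −0.01 in the same order of the authors' deposited tables. The direction of a member in these tables thus depended on which libraries were paired.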

How the data were processed

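Microglia-labelled cortical RNA from 2 control and 2 Bach1 cKO libraries was analysed from 4 tables. Each holds the deposited raw read counts of a library pair, the authors' CPM, the deposited fold (a ratio of CPM) with its log2, and a deposited p-value and adjusted p-value from an unstated test. Counts of 0 carry the CPM of 0.5 reads in the authors' column; CPM here is the count over the library total. HTSeq 0.6.0, TopHat2 2.0.12 and Bowtie2 2.2.3 are named, with build mm9, per the submitters' processing notes; of genes matched by ID, 90.3% had identical GRCm38 positions (GENCODE M21), so GRCm38 is used for positions and exon lengths. Counts did not differ between tables, and 18723 genes had a count in every library.

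The genotypes were compared with edgeR 4.0.16 (R 4.3.3; glmQLFTest, two-sided, TMM factors 0.917 to 1.15, filterByExpr minimum count 10, Benjamini-Hochberg over all genes, 2 residual degrees of freedom). The code was also run on simulated counts with known folds. Those counts held no differences in cell mix between libraries, so they do not show how the edgeR test behaves with such differences. An exact permutation of 2 against 2 libraries cannot go below p = 0.333. Alternatives were DESeq2 1.42.0, limma-voom (limma 3.58.1), other scalings, no filter, and each library left out. Members and lists were chosen with earlier results of these data known. All members were named, with the extremes of each pathway list, Hes5, Dll3, Rbpj, Nrarp, and the most abundant or unread markers; 1 further gene of this rule is not reported here. Border macrophage, interneuron, progenitor and red cell markers were also listed (median log2 fold change 0.85, 1.20, 1.28 and −0.25).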

Additional observations from a re-analysis of the deposited data

How the results depend on the processing

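No member, no other pathway gene and no gene of the whole table passed an adjusted p of 0.05 under any of the 10 alternatives. Unadjusted, 49 genes had a p under 0.05 in edgeR, against 74 in DESeq2, 37 in limma-voom, 149 with no filter, 40 without control 1, 10 without control 6, 583 without cKO 2 and 1784 without cKO 5. Scaling to the summed microglial markers moved the median of all genes from 0.03 to 1.26 and turned the sign of Notch1 (0.92), Notch2 (0.93), Notch3 (0.92), Notch4 (1.20), Dll4 (1.02), Jag1 (1.22), Jag2 (0.91) and Hey1 (1.43); the median of the other pathway genes became 1.06. In limma-voom, Notch4 was 0.11 and Dll1 −0.057. DESeq2, its size factors in edgeR, library totals alone and no filter kept the sign of all 10 members.

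With each library left out in turn, the log2 fold change ranged from −0.89 to 0.56 for Notch1, −0.53 to 0.34 for Notch2, −2.68 to 0.64 for Notch3, −0.87 to 1.34 for Notch4, −1.92 to 1.67 for Dll1, −3.30 to 0.81 for Dll4, −1.70 to 1.08 for Jag1, −1.46 to 0.30 for Jag2 and −2.17 to 1.05 for Hey1. The median of the other pathway genes ranged from −0.18 to 0.079, the latter without control 1. The cause of these changes was not tested. No paired analysis was possible because the control and cKO libraries share no replicate number. Members had 28 to 1268 reads per library; Nrarp, at 1 to 5 reads, was too shallow to compare.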
